A study of Homo sapiens with 6 samples.

Results

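Keratins are the intermediate filament proteins of epithelial cells, and 10 keratin genes were followed here in the RNA-Sequence data of brachyury-knockdown MDA-MB-231 cells and their control cells. The members were taken by gene symbol from the deposited table and were KRT7, KRT8, KRT15, KRT17, KRT18, KRT19, KRT34, KRT80, KRT81 and KRT86, 10 of 54259 symbols in all. The cells are an established line of human breast carcinoma with a mesenchymal shape. The shBry group (3 libraries) carries a short hairpin RNA directed at brachyury, a T-box transcription factor, and the shNC group (3 libraries) carries a control hairpin in the same line. The hairpin sequence, and whether each line was a clone or a pool, are not given in the sources used here, nor do the labels say that the libraries came from separate cultures, so p-values measure the spread between these libraries. 

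Keratin filaments form from equal parts of a type I and a type II keratin, so each cell type expresses keratins in pairs. KRT8 (type II) pairs with KRT18 (type I) in simple epithelia, and KRT7 and KRT19 are the further keratins of ductal and other simple epithelia. KRT15 and KRT17 are keratins of basal cells, KRT80 is a type II keratin of many epithelia, and KRT34, KRT81 and KRT86 are keratins of the hair shaft. Carcinoma cells usually keep simple-type keratins, and loss of them is a common feature of the epithelial-mesenchymal transition.

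The libraries held between 19319411 and 22985371 counts, and a gene listed at 0 could still have up to 3 counts, or 0.131 to 0.155 CPM (counts scaled to the size of the library). These limits cover counting error only. Brachyury, listed under its older symbol T, had 0 counts in all 6 libraries, so the knockdown could not be checked on its own target. The paper describes the gene as constitutively overexpressed in this line, which the RNA counts of the shNC libraries do not show. The reason for this difference was not tested. Of the 6 genes taken as marks of MDA-MB-231 cells (VIM, CD44, AXL, CAV1, MSN and ZEB1), all 6 had enough counts to test. ZEB1 was called higher (log2 fold change 0.67, edgeR adjusted p = 0.0016) and CAV1 lower (-1.11, edgeR adjusted p = 1.4e-07). The other 4 were not called. The oestrogen and progesterone receptor genes and CDH1 had at most 2 counts in any library. Of the 5 genes taken as absent from the line, GATA3 and EPCAM had enough counts to test. GATA3 was not called. EPCAM, an epithelial surface gene, rose from 1.55 ± 0.512 CPM in shNC to 4.28 ± 0.68 in shBry (SD, n = 3; log2 difference 1.47, edgeR adjusted p = 0.00034). Squamous keratinocyte markers reached at most 10 counts and leukocyte markers at most 3 in any library. The deposited design text calls the RNA pericardial, and of 7 mesothelial markers 3 were tested, ITLN1 and HAS1 were at 0, and the list summed to 40.1 to 42 CPM in shNC and 51.4 to 57.7 in shBry. The 3 tested genes went different ways. MSLN, which made up most of the sum, was at 32 ± 3.84 CPM in shNC and 45.8 ± 2.88 in shBry and was not called. LRRN4 was called higher (log2 fold change 0.76), and CALB2 was called lower (-2.52), with 222 counts in shNC replicate 3 and at most 30 in any other library. The part of ZEB1, CAV1, EPCAM and the mesothelial markers in the keratin results was not tested.

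All 10 genes were counted, but 8 passed the expression filter and were tested with edgeR's quasi-likelihood test against all other genes of the table. A gene was called changed at an adjusted p below 0.05 with a fold change above 1.5 (0.585 on the log2 scale), and CPM are scaled with edgeR's TMM factors. KRT8 and KRT19 fell in shBry, KRT7 and KRT81 rose, and KRT15, KRT18, KRT80 and KRT86 were not called. These 4 calls among the 8 tested genes stand beside 32.4% of all 15277 tested genes that were called, 17.1% higher and 15.2% lower. The median log2 fold change of the 8 genes was 0.33, against 0.03 over all tested genes. By adjusted p alone 7 of the 8 passed, beside 53.3% of all tested genes. These shares are given as a description, since low genes such as KRT81 and KRT19 passed the filter mainly through the group where they were higher.

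**Figure D1:**
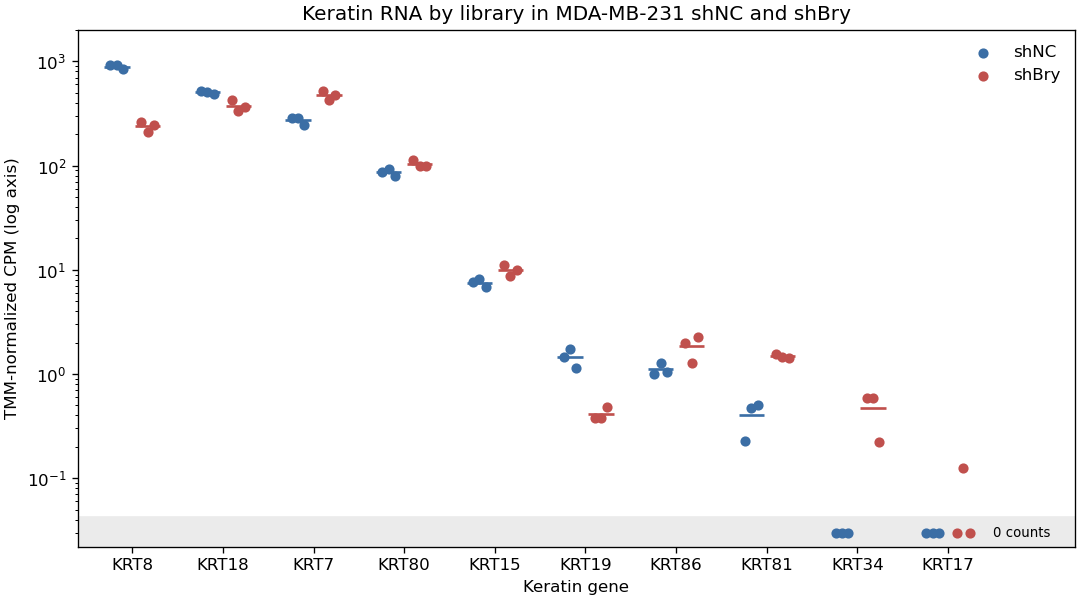
TMM-normalized CPM on a log axis for each of the 10 keratins, with a point for each library (shNC blue, shBry red) and a bar at the group mean where no library was at 0. KRT8 dropped from 890 to 239 CPM while KRT7 went from 271 to 475, and KRT34 had counts in every shBry library and 0 in each shNC library.

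KRT8 changed most among the abundant keratins. The gene lies on chromosome 12 of GRCh38 (chr12:52897187-52949954, minus strand) and encodes keratin 8, the type II partner of keratin 18. Its level was 921, 914 and 837 CPM in shNC replicates 1, 2 and 3, and 259, 212 and 245 CPM in shBry replicates 1, 2 and 3. Every shBry library lay far below every shNC library, and the groups were wider apart than the spread within either. The mean was 890 ± 46.6 CPM in shNC and 239 ± 24.3 in shBry (SD, n = 3), 3.73-fold lower (log2 fold change -1.90, SE 0.09, edgeR adjusted p = 9e-10). In bulk RNA, fewer cells with KRT8 transcripts and less KRT8 RNA in each cell cannot be told apart. The log2 value lay between -1.97 and -1.84 when single libraries were omitted. Other genes hold 10.1% of the 50-base stretches of KRT8, and the pseudogene KRT8P3 alone holds 5.49%. Adding the counts of the KRT8 pseudogene rows to KRT8 left the call in place. Exons of KRT18 cover 7.63% of the KRT8 exon bases on the opposite strand.

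KRT18, the type I partner of KRT8, lies beside it on the opposite strand (chr12:52948871-52952901, plus strand) and moved far less. It was at 523, 512 and 488 CPM in the shNC libraries and at 423, 331 and 362 CPM in the shBry libraries. The groups did not overlap, and 59.5% of all tested genes likewise had libraries that did not overlap, as did 7 of the 8 tested keratins. The mean was 508 ± 18 CPM in shNC and 372 ± 46.5 in shBry (log2 fold change -0.45, SE 0.09, edgeR adjusted p = 0.00088), which is under the limit of 1.5-fold. KRT18 therefore passed the p threshold and was not called. Exons of KRT8 cover 16.3% of the KRT18 exon bases on the opposite strand. The sources used here do not give whether reads were counted by strand.

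The unequal change of the pair was seen in the ratio of KRT18 to KRT8, taken from CPM per kilobase of each gene's principal transcript. The ratio was 0.773, 0.763 and 0.793 in the shNC libraries and 2.22, 2.13 and 2.01 in the shBry libraries. It was thus below 1 in every shNC library and about 2 or above in every shBry library, a 2.73-fold difference. An exact two-sided permutation test over the 6 libraries gave p = 0.1, the smallest value that 3 libraries against 3 allow. Whether the ratio lies above or below 1 depends on the transcript lengths chosen, and the fold between the groups does not.

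KRT7 moved in the opposite direction to KRT8. It encodes the type II keratin 7 of ductal epithelia and lies toward the other end of the same gene cluster (chr12:52232520-52252186, plus strand). Its level was 284, 286 and 244 CPM in the shNC libraries, and 519, 429 and 478 CPM in the shBry libraries. All shBry values were above all shNC values. The mean of 475 ± 45.4 CPM in shBry was 1.75-fold that of 271 ± 23.7 in shNC (log2 fold change 0.81, SE 0.09, edgeR adjusted p = 5.5e-06). Exons of other genes, an antisense gene and a pseudogene, cover 7.67% of its exon bases on the opposite strand. The ratio of KRT7 to KRT8, chosen after the values were seen, went from 0.369 ± 0.0136 in shNC to 2.42 ± 0.0431 in shBry (SD, n = 3), a 6.55-fold difference with the same smallest permutation p of 0.1.

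The order of the keratins by level was different in the groups. By CPM per kilobase of principal transcript, KRT8 led in shNC with 419 ± 21.9, followed by KRT18 with 325 ± 11.5 and KRT7 with 155 ± 13.5. In shBry, KRT7 with 271 ± 25.9 and KRT18 with 238 ± 29.8 came ahead, with KRT7 above KRT18 in each of the 3 libraries, and KRT8 followed with 112 ± 11.4. KRT80 came next in both groups, at 22.6 ± 1.75 in shNC and 26.9 ± 2.01 in shBry, and every other member was below 2. With the union of all annotated exons as length, KRT18 and not KRT8 led in shNC, at 158 against 129, while KRT7 was above KRT8 in shBry and below it in shNC as before. On that scale KRT7 and KRT18 were level in shBry, both at 116.

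As shares of the summed per-length level of the 10 genes, KRT8 fell from 45.3% ± 0.0131 in shNC to 17.2% ± 0.459 in shBry. KRT7 went the other way, from 16.7% ± 0.616 to 41.6% ± 0.528. KRT18 held 35.2% ± 0.701 and 36.5% ± 0.937. The summed level itself was 955, 949 and 869 in the shNC libraries and 722, 586 and 649 in the shBry libraries. The sum of these 10 genes was thus lower in every shBry library (exact two-sided permutation test, p = 0.1). KRT8, KRT18 and KRT19 had lower means in shBry, and the other members had higher means. The type II genes together made up 64.7%, 65.1% and 63.8% in shNC and 62.1%, 63.4% and 64% in shBry, and the libraries of the groups overlapped (exact two-sided permutation test, p = 0.2). The small difference of -1.39 percentage points turned to 2.5 with the exon union as length, so no direction is given for it.

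**Figure D2:**
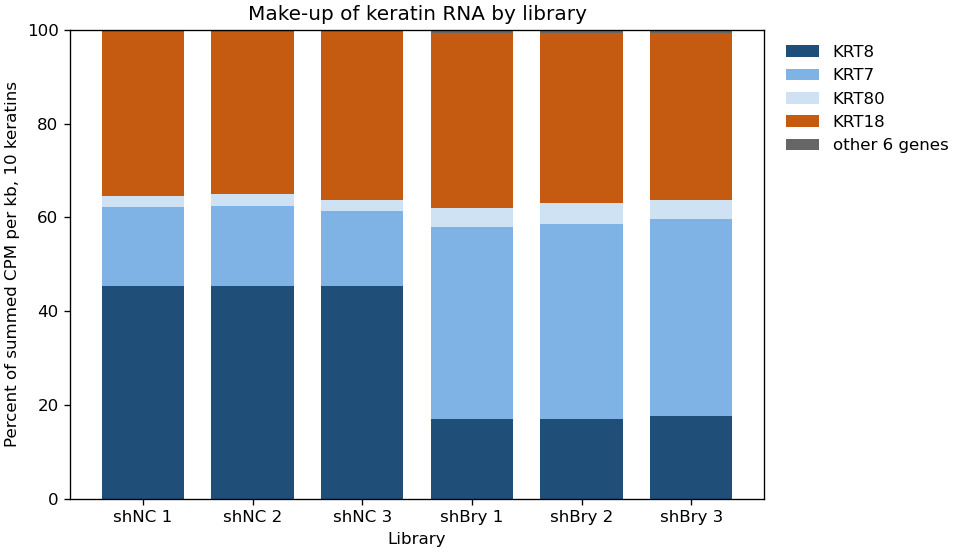
Percent of the summed CPM per kilobase of the 10 keratins held by each gene in each library (stacked bars). The type II genes KRT8, KRT7 and KRT80 are in blue, KRT18 in orange and the other 6 genes, KRT81 and KRT86 among them, in grey. KRT8 took 45.3% in shNC and 17.2% in shBry, and KRT7 took 16.7% and 41.6%. The share of all type II genes, the grey KRT81 and KRT86 included, stayed between 62.1% and 65.1%.

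KRT80, a type II keratin gene (chr12:52168996-52192000, minus strand), was at 87.2, 93.7 and 80.2 CPM in shNC and at 113, 99.1 and 99.9 CPM in shBry. The shBry libraries were slightly above the shNC libraries without overlap. The log2 fold change was 0.26 (SE 0.09, edgeR adjusted p = 0.026), which is under the fold change limit, and the adjusted p reached 0.12 with a library left out. KRT15, a type I keratin of basal cells (chr17:41513743-41522529, minus strand), was at 7.55, 8.08 and 6.85 CPM in shNC and 11, 8.8 and 10 CPM in shBry. Its libraries did not overlap either. This came to 0.40 on the log2 scale (SE 0.15, edgeR adjusted p = 0.035), again under the limit, and its adjusted p also reached 0.12 with a library left out.

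KRT19, which encodes the smallest keratin and lies next to KRT15 (chr17:41523617-41528308, minus strand), was low and fell. It had 32, 37 and 23 counts in the shNC libraries and 7, 9 and 11 counts in the shBry libraries. In CPM these were 1.46, 1.75 and 1.15 against 0.377, 0.379 and 0.487. Every shBry library lay below the lowest shNC library, and the log2 fold change was -1.80 (SE 0.35, edgeR adjusted p = 0.00068). KRT19 passed the expression filter mainly through the shNC libraries, where it was higher, so its call is given as a description. KRT15 and KRT19 are neighbours on the chromosome, with log2 fold changes of opposite sign.

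KRT17, a keratin of basal and stressed epithelium (chr17:41619441-41624842, minus strand), had 3 counts in shBry replicate 2 and 0 counts in the other libraries. Both groups were at or under the limit set by a count of 0, and no fold is given.

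The hair keratin genes were rare in all libraries, and KRT81 alone among them was both tested and called. KRT81 (chr12:52285913-52291534, minus strand) and KRT86 (chr12:52249300-52309163, plus strand) are type II hair keratins with nearly the same coding sequence. A run of 605 bases, from position 61 to 665 of both coding sequences, is identical, so reads inside it cannot be assigned to either gene. The 2 lines show coding positions 636 to 725, where that run ends, read 5′ to 3′ from GENCODE transcripts on GRCh38 (chr12:52288371-52289218, minus strand, for KRT81, and chr12:52304168-52305017, plus strand, for KRT86, both spans with introns), with the 2 differing positions in capitals.
KRT81: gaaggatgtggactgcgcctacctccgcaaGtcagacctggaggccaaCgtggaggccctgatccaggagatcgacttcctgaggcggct
KRT86: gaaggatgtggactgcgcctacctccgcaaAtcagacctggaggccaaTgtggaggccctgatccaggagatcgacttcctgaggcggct
Over whole transcripts, 37.6% of the 50-base stretches of KRT81 also occur in KRT86, and 30.8% of those of KRT86 occur in KRT81.

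KRT81 had 5, 10 and 10 counts in the shNC libraries and 29, 35 and 32 counts in the shBry libraries. The groups were well apart, at 0.401 ± 0.149 CPM in shNC and 1.48 ± 0.0718 in shBry. KRT81 thus rose 3.68-fold (log2 1.88, SE 0.37, edgeR adjusted p = 0.00063). Its passage through the expression filter came mainly from the shBry libraries, where it was higher, so this call too is given as a description. KRT86 had 22, 27 and 21 counts in shNC and 37, 30 and 51 in shBry. In CPM, shBry replicate 2 with 1.26 lay below shNC replicate 2 with 1.28, so the groups overlapped. The log2 fold change was 0.72 (SE 0.30) and it was not called, with an adjusted p of 0.061 in edgeR. Without shBry replicate 2 it was 0.92 and was called (adjusted p = 0.016, edgeR). Summed into a single row, the pair rose by 1.13 on the log2 scale (adjusted p = 0.0014, edgeR). KRT81 took 18.5%, 27% and 32.3% of the counts of the pair in shNC and 43.9%, 53.8% and 38.6% in shBry (exact two-sided permutation test, p = 0.1).

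KRT34 is a type I hair keratin gene (chr17:41377650-41382403, minus strand). It had 0 counts in each shNC library and 11, 14 and 5 counts in shBry replicates 1, 2 and 3. The shBry mean was 0.468 ± 0.213 CPM, at least 3.27-fold higher than a limit of 3 counts in each shNC library. This bound was worked out only for members with 0 counts in every shNC library. The p of 0.1 in an exact two-sided permutation test, the smallest possible, follows mainly from that choice and is no support for a change. The expression filter removed KRT34. It could pass a filter only through the shBry libraries, where its counts lie, so its calls in the fits that it entered (without the filter, or with shBry replicate 3 or any shNC library left out) are no support for a change. Its neighbour KRT33B, with which it shares 6.64% of its 50-base stretches, had 1 count in each shNC library and 3, 7 and 5 counts in the shBry libraries.

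The promoter window of KRT34 is shown because the gene had counts in the knockdown libraries alone and because it holds the letters GGTGTGA, the core of the site bound by brachyury and other T-box factors. The window is taken from RefSeq on GRCh38.p14 (chr17:41382257-41382556, minus strand), covers 300 bases around the RefSeq start, and carries the match in capitals.
KRT34: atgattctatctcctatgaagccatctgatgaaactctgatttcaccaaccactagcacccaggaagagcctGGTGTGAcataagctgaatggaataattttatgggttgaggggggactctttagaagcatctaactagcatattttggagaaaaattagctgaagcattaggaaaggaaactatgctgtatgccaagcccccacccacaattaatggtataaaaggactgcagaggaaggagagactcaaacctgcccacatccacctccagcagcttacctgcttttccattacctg
The match lies at chr17:41382478-41382484, and on either strand the same letters occur in 3.45% of 35116 promoter windows of that length. The palindromic AP-1 site TGANTCA, searched in the same way and present in 7.71% of the windows, had no match. A match is a description of the sequence, not a binding site. The window was picked with the counts and the match known, so their meeting in KRT34 is no result. Brachyury itself had no counts in the libraries of either group, and whether it acts on KRT34 was not tested. The table of promoters held a window for 2 of the 10 genes, KRT34 and KRT8. The RefSeq start used for the window lies 97 bases from the start of the principal GENCODE transcript for KRT34. For KRT8 this distance is 23373 bases, and neither motif matched in the KRT8 window.

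The keratin cluster of chromosome 12 holds 27 genes in GENCODE, 6 of them members, and 18 of the 27 were at 0 counts in all libraries. KRT80, KRT7, KRT86 and KRT81, the first 4 genes of the cluster, had log2 fold changes from 0.26 to 1.88, and KRT8 and KRT18, the last 2, had -1.90 and -0.45. KRT80, KRT86 and KRT18 were not called, and KRT81 and KRT86 share much of their sequence and are not separate observations. The 21 keratin genes between them reached at most 11 counts. On chromosome 17, 27 keratin genes lie in the type I cluster, of which 16 were at 0 counts, and the members KRT34, KRT15, KRT19 and KRT17 were its 14th, 22nd, 23rd and 27th genes.

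**Figure D3:**
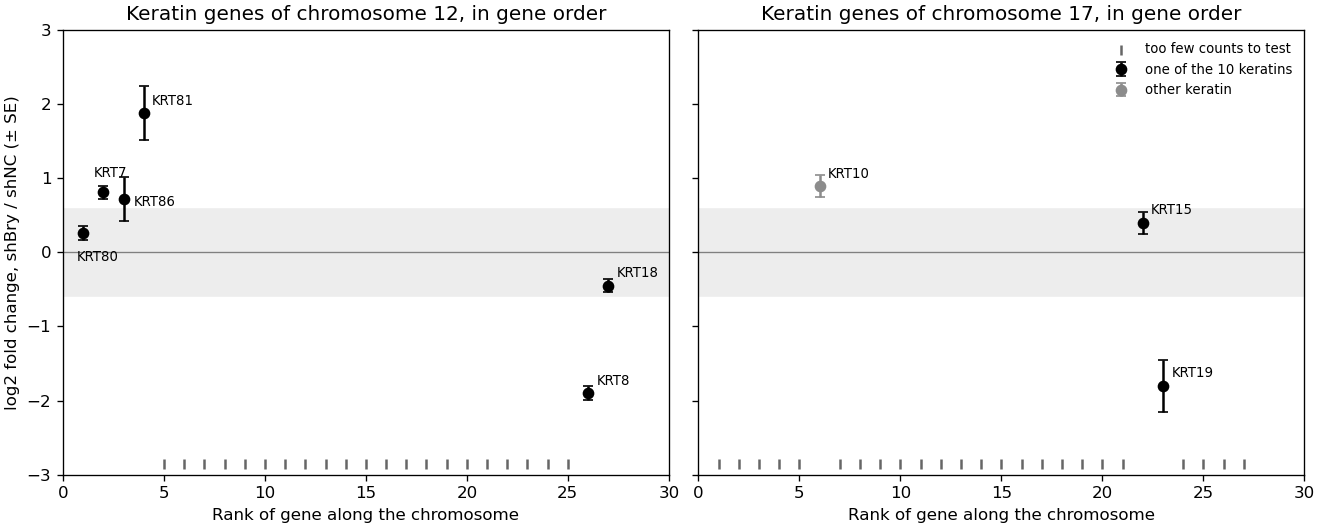
Log2 fold change of shBry over shNC (points, with SE bars) for the tested keratin genes in their order along chromosomes 12 and 17, with ticks at the base for genes with too few counts and a grey band inside the 1.5-fold limit. On chromosome 12, KRT7, KRT86 and KRT81 lie above the band at 0.81, 0.72 and 1.88, of which KRT86 was not called, and KRT8 lies below it at -1.90 at the far end.

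Of the 44 other keratin genes, 34 were at 0 counts in all libraries, 9 had too few counts to test and 1 was tested. That gene was KRT10, a type I keratin of differentiated epidermis, which rose to 19.5 ± 1.83 CPM in shBry over 10.5 ± 1.79 in shNC (log2 fold change 0.89, SE 0.15, edgeR adjusted p = 0.00016). The basal keratins KRT5 and KRT14 and the stress keratin KRT6A had 0 counts throughout, and KRT16 had 0, 2 and 2 counts in shNC and 2, 5 and 7 in shBry.

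**Figure D4:**
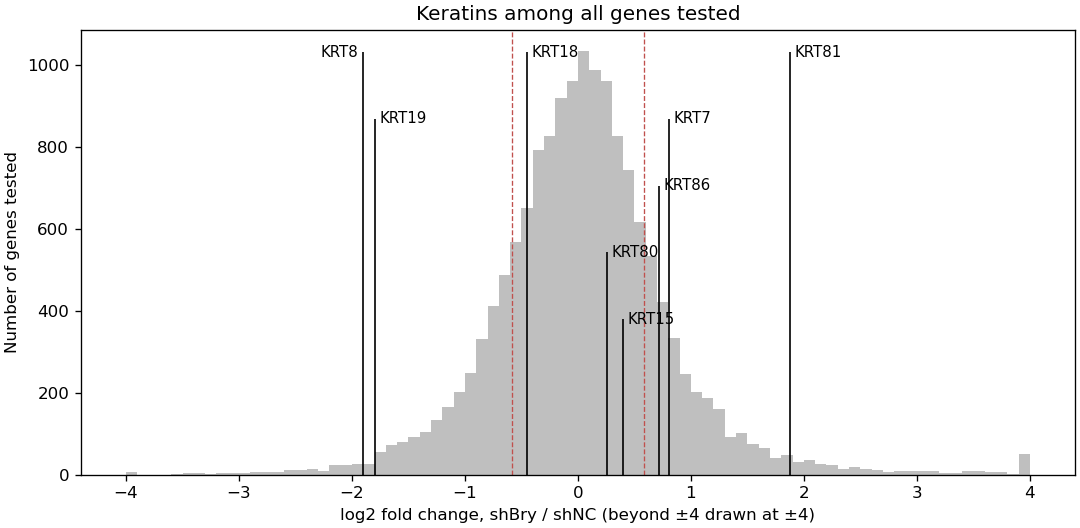
Histogram of the log2 fold change of all 15277 tested genes (number of genes per bin of 0.1), with the 8 tested keratins as labelled lines and dashed lines at the 1.5-fold limits. KRT8 at -1.90, KRT19 at -1.80 and KRT81 at 1.88 lie in the tails, and KRT18, KRT80 and KRT15 lie inside the limits.

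Genes whose proteins anchor or bind keratin filaments moved in both directions. Of 18 such genes, 12 were tested, 4 were called lower and 1 higher, beside 15.2% lower and 17.1% higher among all tested genes. Their median log2 fold change was -0.32, against 0.03 over all tested genes. TCHP, which encodes the keratin-binding protein trichoplein, fell to 17.8 ± 0.88 CPM in shBry, with 48.7 ± 3.24 in shNC (log2 fold change -1.45, edgeR adjusted p = 5.6e-08). Exons of GIT2 cover 33.1% of its exon bases on the opposite strand. EVPL, which encodes envoplakin, fell by 0.73 on the log2 scale (adjusted p = 1.1e-05, edgeR). PKP3, a desmosomal plakophilin, was the gene called higher, at 83.9 ± 9.57 CPM in shBry and 44.8 ± 5.8 in shNC (log2 fold change 0.90, edgeR adjusted p = 1.2e-05). JUP, the plakoglobin gene, was called lower with a log2 fold change of -0.67, and so was TRADD, an adaptor that binds keratin 18, with -0.60. The call on TRADD was lost without shBry replicate 2 or shNC replicate 2. DSP, which encodes desmoplakin, the desmosome's anchor for keratin, stood at 99.8 ± 15.1 CPM in shNC and 149 ± 13.5 in shBry, at the edge of the limit with a log2 fold change of 0.58. It was called without shBry replicate 1, shBry replicate 3 or shNC replicate 3.

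Most other intermediate filament genes that could be tested fell in shBry. Of 15 such genes, 10 were tested and 8 were called, all 8 lower, beside 15.2% of all tested genes called lower. Their median log2 fold change was -0.80, against 0.03 over all tested genes. These values are a description, since the low gene GFAP passed the filter mainly through the shNC libraries, where it was higher. GFAP had 32, 24 and 25 counts in shNC and 2, 18 and 6 in shBry. With at least 10 counts required in every library, GFAP left the test and 7 genes were called. LMNB1, a lamin gene, stood at 105 ± 3.99 CPM in shNC and fell to 39.2 ± 2.08 in shBry (log2 fold change -1.43, edgeR adjusted p = 9e-09). LMNB2 fell by 0.97 (adjusted p = 1.3e-07, edgeR) and SYNM, which encodes synemin, by 1.46 (adjusted p = 1.1e-06, edgeR) on the same scale. Vimentin, the main filament of mesenchymal cells, was at 3860 ± 142 CPM in shNC and 3200 ± 152 in shBry (log2 fold change -0.27, edgeR adjusted p = 0.0085), under the fold limit. Per kilobase of principal transcript, vimentin RNA stood at 1810 in shNC and 1500 in shBry, above the 924 ± 48.1 and 652 ± 68.4 of all 10 keratins together. The calls on the low genes DES and PRPH depended on single libraries, and 6 genes were called without shNC replicate 1 or shNC replicate 2. Exons of other genes on the opposite strand cover 27.7% of the exon bases of SYNM and 24.4% of those of vimentin. For PRPH this was 56.2%, for GFAP 18.4% and for DES 4.22%, and LMNB1 and LMNB2 had no such overlap. Exons of other genes on the same strand cover 5.58% of the exon bases of LMNB2.

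**Figure D5:**
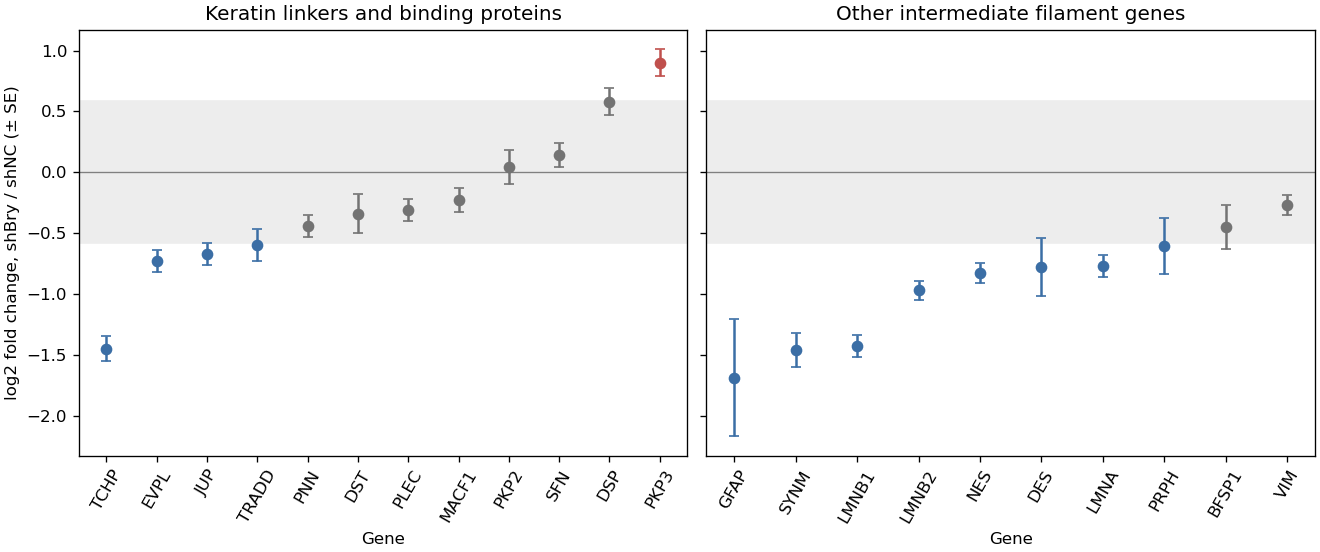
Log2 fold change of shBry over shNC (points, with SE bars) for the tested keratin linkers and for the tested other intermediate filament genes, coloured blue where called lower, red where called higher and grey where not called, with a grey band inside the 1.5-fold limit. Of the linkers, TCHP is lowest at -1.45 and PKP3 highest at 0.90, and all 10 other filament genes lie below 0.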

How the data were processed

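RNA of 3 MDA-MB-231 shBry and 3 shNC libraries was sequenced. The authors deposited raw counts, the reads on each gene symbol, without normalization. The submitters' processing notes name HISAT2 2.0.4, HTSeq and GRCh38. The annotation and the use of strand are not given in the sources used here. All sample columns were matched to labels by title. 

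Genes were filtered with filterByExpr (minimum count 10), scaled with TMM and compared in edgeR 4.0.16 under R 4.3.3 (quasi-likelihood F test), with Benjamini-Hochberg adjustment over all 15277 tested genes. SE is the log2 fold change divided by the root of F. Counts per library lay between 19319411 and 22985371. Ratios were compared by exact permutation tests. Levels per kilobase used the principal transcript of GENCODE 29. In simulated counts for 15277 genes, 78 of 100 genes changed 2-fold and 98 of 100 changed 4-fold were recovered, and 3 unchanged genes were called. No other genes were changed in the simulation, while 32.4% of tested genes were called in the data. It therefore gives no rate of false calls for so wide a shift.

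The members and gene lists were chosen with earlier results of these data known. Genes named were all members, called keratins, KRT5, KRT14, KRT6A and KRT16, the 3 lowest adjusted p of each partner list and vimentin. KRT33B, JUP, TRADD, DSP, DES, PRPH, GFAP, ZEB1, CAV1, EPCAM, GATA3, MSLN, LRRN4 and CALB2 were named after their values were seen. Alternatives were other scalings, DESeq2 1.42.0, other filters and limits, the replicate block, left-out libraries and added pseudogene counts.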

Additional observations from a re-analysis of the deposited data

How the results depend on the processing

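The 4 calls on KRT7, KRT8, KRT19 and KRT81 were the same without TMM, with upper-quartile scaling, with DESeq2 and without the expression filter. They were also the same under the replicate block and with each library left out. KRT19 and KRT81 passed the filter mainly through the group where they were higher, so their repeated calls are a description. At least 10 counts in every library removed KRT19 and KRT81 from the test and called KRT86 (log2 fold change 0.71). No tested member changed direction under any alternative. Without a fold change limit, 7 members, 8 linker genes and 8139 genes in all were called. With a limit of 2, 3 members, 1 linker gene, 3 other filament genes and 2297 genes in all were called, and 0 of the other keratins in edgeR, since KRT10 changed 1.85-fold (at the limit of 1.5, 1 by unadjusted p and 1 with DESeq2). The type II share differed by -2.5 percentage points with counts not divided by length and by 2.5 with the exon union as length, an alternative added after seeing the data. Same-numbered libraries of the groups had correlations of 0.29, -0.159 and -0.0689 between their deviations over 15277 genes. These values had no common sign, and with so few libraries they cannot settle whether the numbers paired the samples. Under the replicate block 4 members, 1 other keratin, 6 linker genes and 8 other filament genes were called. Depth limits KRT17, KRT34, KRT81, KRT86 and KRT19, each with at most 51 counts in any library.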

Other observations

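Pseudogene rows of the keratins were also counted. For KRT8, 14 of 51 such rows had counts, summing to 165 to 174 counts in shBry libraries and 195 to 285 in shNC libraries, at most 3.46% of the KRT8 counts of a library. The rows KRT8P3, KRT8P12 and KRT8P33 passed the expression filter. KRT8P3, which holds 5.49% of the 50-base stretches of KRT8, stood at 5.37 ± 1.43 CPM in shNC and fell to 1.21 ± 0.309 in shBry (SD, n = 3; log2 fold change -2.16, SE 0.26, edgeR adjusted p = 1e-05). KRT8P12 had 2.9 ± 0.681 CPM in shNC and 4.09 ± 0.255 in shBry, and KRT8P33 had 1.16 ± 0.225 and 1.24 ± 0.351. Neither was called, with adjusted p of 0.066 and 0.84 in edgeR. For KRT18, 14 of 68 pseudogene rows had counts, at most 22 in a library.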
